A study of Homo sapiens with 4 samples.

Results

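The transcription of 10 genes of sugar breakdown and of the response to low oxygen, namely HIF1A, VEGFA, SLC2A1, HK2, PFKP, ALDOA, PGK1, ENO1, LDHA and BNIP3, was followed in newly made RNA. They were chosen by symbol, and all 10 were found among the 60708 genes of the deposited count table. The RNA came from HEK293 cells, a human embryonic kidney line, in which RPB1, the largest subunit of RNA polymerase II, carries a degron, a tag through which auxin triggers destruction of the protein. The cells were transiently transfected with a plasmid for RPB1 whose carboxy-terminal domain (CTD) holds either the 52X WT repeats or 52X repeats that all carry T4A, which replaces the threonine at the fourth position with alanine. Auxin was added 48 h after transfection and kept for 48 h in both groups, so that WT and T4A differed by the plasmid alone as the labels describe them. RNA was then labeled with 4-thiouridine for 20 min and the labeled fragments were sequenced (TT-seq), with 2 libraries of each group. The labels do not say whether the libraries of a group came from separate cultures, so p-values measure the spread between these libraries only, which may be technical. No cells without a plasmid or without auxin, and no cells in low oxygen, were among the samples analysed here.

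Cells break glucose down to pyruvate through the enzymes of glycolysis and can turn the pyruvate into lactate. When oxygen is scarce, the HIF-1 alpha protein, made from HIF1A, escapes the destruction that prolyl hydroxylases and the VHL ubiquitin ligase set in motion, pairs with ARNT, and raises transcription of genes whose regulatory DNA holds the hypoxia response element. Glucose transporters, most glycolytic enzymes, the vessel growth factor VEGFA and the mitochondrial protein BNIP3 are well-known targets, and the control of HIF-1 alpha itself lies mostly at the protein. Many of these genes are also transcribed at high levels in proliferating cell lines in normal oxygen.

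The counts summed to 39249066 and 45605027 over all genes in the WT libraries and to 33853507 and 33188536 in the T4A libraries. Reads over the whole span of a gene were counted, introns included, so a count reflects transcription along the gene more than the amount of mRNA. POLR2A, the gene of RPB1, was listed at 377312 and 384353 counts in the WT libraries and at 251502 and 279478 in the T4A libraries, and its log2 fold change of T4A over WT was -0.24 (SE 0.25, adjusted p = 0.659 in edgeR's quasi-likelihood test, adjusted by Benjamini-Hochberg over all tested genes). RNA of the plasmids and of the endogenous gene cannot be told apart there, and the degron acts on the protein, so this gene does not check the labels. T4A replicate 1 stood apart: its log2 CPM (counts relative to the total of a library) correlated at 0.985 and 0.986 with the WT libraries and at 0.988 with T4A replicate 2, against 0.994 for T4A replicate 2 with each WT library and 0.996 between the WT libraries. Of the HEK293 markers, VIM, KRT8 and KRT18 had between 18.6 and 90.6 normalized CPM in all 4 libraries. LHX1 had 3.16 to 3.64 and PAX2 1.81 to 2.78, while NEFM had between 0 and 6 counts. Of the markers of other lineages that are reported here, COL1A1 was the highest at 1.85 to 2.95 normalized CPM. PAX2 therefore did not stand above the markers of other lineages.

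Not every gene of the set could be measured equally well. Reads that fell on annotated genes sharing a strand were taken as not counted. This rule was inferred, since genes almost wholly covered by another gene of their strand had few or no counts. VEGFA (chr6:43770184-43786487, plus strand), HK2 (chr2:74834127-74893359, plus strand) and BNIP3 (chr10:131966455-131982013, minus strand) lay free over their whole spans in GRCh38. SLC2A1 (chr1:42925353-42958893, minus strand), ENO1 (chr1:8861000-8879190, minus strand) and LDHA (chr11:18394560-18408425, plus strand) were free over 98.7%, 99.5% and 91.9% of their spans. PFKP (chr10:3066333-3137718, plus strand) lost only its last 3153 bp to the lncRNA gene ENSG00000278419 and stayed free over 95.6%. HIF1A (chr14:61695513-61748259, plus strand) lost its last 14122 bp, with the 3' end of the gene, to the lncRNA gene ENSG00000258964, so that its count came from the first 38.6 kb of 52.7 kb.

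ALDOA and PGK1 were the genes most affected by the annotation. ALDOA (chr16:30064164-30070457, plus strand), the aldolase that splits the 6-carbon sugar, lies inside the protein-coding gene ENSG00000285043 except for 43 bp, or 0.683% of its span. Its counts were 10 and 10 in the WT libraries and 18 and 21 in the T4A libraries. The surrounding gene had 339 and 336 in WT and 281 and 302 in T4A, over the part that is its own. These counts are not scaled to the size of a library. The fitted log2 fold change of the surrounding gene was 0.07 (unadjusted p = 0.676 in edgeR's quasi-likelihood fit). The transcription of ALDOA is therefore not measured by this table, and its value is given for completeness only. PGK1 (chrX:77910739-78129295, plus strand), phosphoglycerate kinase, is listed with a span of 218.6 kb that starts 193.5 kb upstream of the RefSeq gene, which covers 25048 bp. The first part of that span is shared with ATP7A, which as a result had 1 count in one library and 0 in the others, and 36.1% was free. The RefSeq gene lies wholly in the free part.

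**Figure D1:**
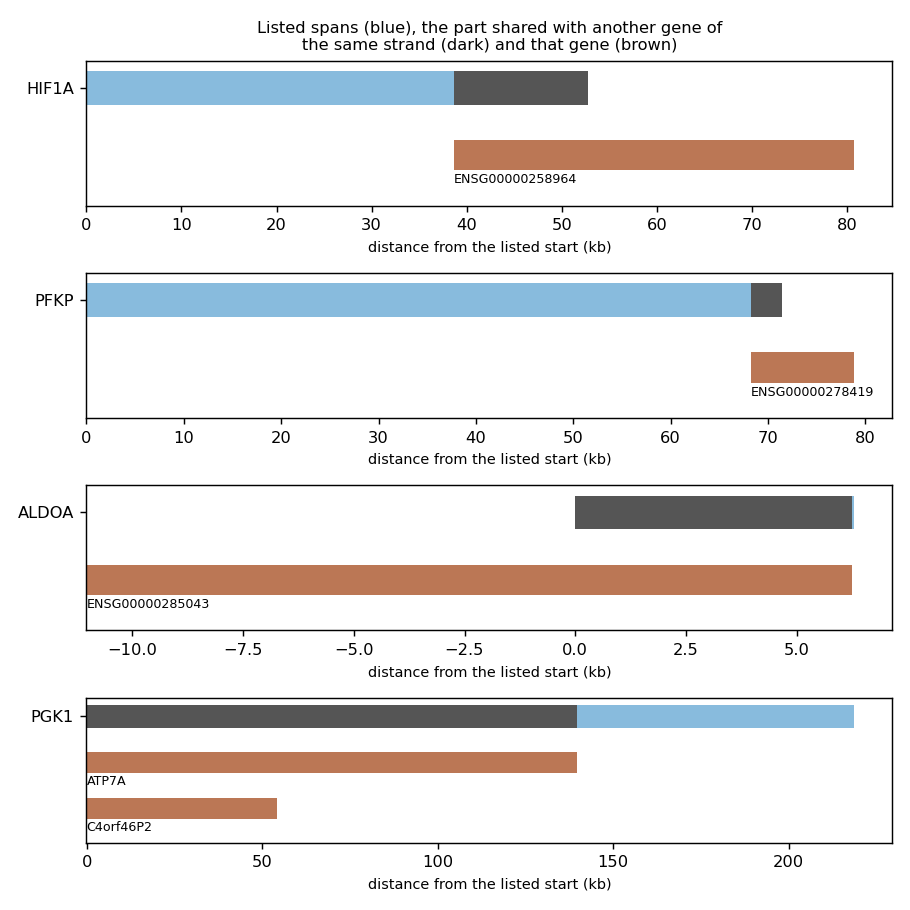
Listed spans of the 4 genes that share the most bp with other genes of their strand, as distance in kb from the listed start. Blue is free, and dark is shared, where reads were taken as not counted. Brown is the other gene, drawn as far as the panel reaches. ALDOA keeps 0.683% of its span, PGK1 36.1%, HIF1A 73.2% and PFKP 95.6%.

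RefSeq promoters, taken from 250 bases before to 50 bases after a start in GRCh38.p14, were matched for 9 of the genes, VEGFA being the exception, with 17 starts in all. They are shown because the genes are grouped by their response to HIF-1, whose response element often has the core ACGTG. That core, searched on both strands, was present in 9 of the 17 promoters and in 6 genes (HK2, PFKP, ALDOA, PGK1, LDHA and BNIP3), against 21.4% of 35116 RefSeq promoters of the same length. It overlaps the E-box CACGTG, which other factors bind and which reads as the core on both strands. It stood at 2 or more places in a promoter of HK2, LDHA and PGK1, beside 3.4% of all promoters. Both shares are per promoter and cannot be set against numbers of genes, since some of these genes have several starts. Printed here in the direction of transcription, with each core in capitals, are the promoters with 3 places (LDHA and PGK1). An example with 1 place (BNIP3) and an example with none (SLC2A1) follow. Other promoters had 1 place or none, and the other LDHA promoter of the RefSeq table had none.
LDHA, chr11:18394313-18394612, plus strand: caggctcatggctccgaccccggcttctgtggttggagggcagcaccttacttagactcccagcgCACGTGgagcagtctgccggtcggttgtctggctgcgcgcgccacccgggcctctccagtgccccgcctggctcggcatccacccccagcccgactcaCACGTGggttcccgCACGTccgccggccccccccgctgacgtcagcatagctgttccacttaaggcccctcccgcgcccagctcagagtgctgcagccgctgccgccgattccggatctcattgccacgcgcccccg
PGK1, chrX:78103998-78104297, plus strand: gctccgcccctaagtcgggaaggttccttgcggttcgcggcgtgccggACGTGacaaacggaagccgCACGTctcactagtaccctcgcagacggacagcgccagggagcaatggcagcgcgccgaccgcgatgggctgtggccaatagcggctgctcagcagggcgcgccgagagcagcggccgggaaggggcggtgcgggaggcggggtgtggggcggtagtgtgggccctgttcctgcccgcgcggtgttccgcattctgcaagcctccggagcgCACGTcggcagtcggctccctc
BNIP3, chr10:131981874-131982173, minus strand: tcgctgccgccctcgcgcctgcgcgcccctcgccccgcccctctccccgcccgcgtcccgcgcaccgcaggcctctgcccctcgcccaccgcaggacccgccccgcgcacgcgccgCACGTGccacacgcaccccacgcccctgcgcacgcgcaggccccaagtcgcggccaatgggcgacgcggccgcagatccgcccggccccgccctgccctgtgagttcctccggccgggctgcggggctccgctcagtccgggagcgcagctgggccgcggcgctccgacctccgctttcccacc
SLC2A1, chr1:42958819-42959118, minus strand: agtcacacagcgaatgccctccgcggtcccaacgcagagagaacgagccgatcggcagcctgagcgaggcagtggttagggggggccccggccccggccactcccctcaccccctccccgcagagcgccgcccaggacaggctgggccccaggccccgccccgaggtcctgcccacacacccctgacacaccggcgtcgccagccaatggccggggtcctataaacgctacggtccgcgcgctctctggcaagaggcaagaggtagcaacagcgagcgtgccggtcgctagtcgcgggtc
In LDHA the places began 185, 87 and 73 bases before the start, and the first 2 of them were E-boxes. In PGK1 they lay 202 and 183 bases before and 29 bases after the start, and in BNIP3 the single place, an E-box, lay 134 bases before it. The promoters of ENO1 and HIF1A in the RefSeq table held no core either. A match describes letters in a window, and a response element can lie outside it.

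Transcription of these genes spanned a wide range in the WT cells. Levels were compared between genes as normalized CPM (scaled by the TMM method, which sets libraries to a common level over most genes) per kb of free span, and ALDOA was left out. ENO1, enolase, stood at the top with 32.8 ± 1.23 CPM per kb (SD, n = 2) in WT and 35.4 ± 1.05 in T4A. LDHA, the lactate dehydrogenase subunit that turns pyruvate into lactate, followed with 10.7 ± 0.512 in WT and 11.04 ± 0.264 in T4A. HIF1A came next with 4.57 ± 0.141 CPM per kb in WT and 5.20 ± 0.165 in T4A, above VEGFA with 3.14 ± 0.0242 and 3.67 ± 0.287. PFKP, the platelet-type phosphofructokinase of the committed step, had 2.83 ± 0.0616 in WT and 2.45 ± 0.318 in T4A. From ENO1 to PFKP the order held in every library, since the ranges of neighbours over the 4 libraries did not overlap. PGK1 at 1.97 ± 0.0573 and 2.14 ± 0.0628 CPM per kb could not be ordered against SLC2A1, the glucose transporter GLUT1, at 1.88 ± 0.106 and 2.26 ± 0.110, and SLC2A1 overlapped in range with PFKP, which it exceeded in T4A replicate 1, and with BNIP3 at 1.59 ± 0.00601 and 1.81 ± 0.0903. HK2, the inducible hexokinase that traps glucose in the cell, was lowest of the 9 genes with 1.11 ± 0.0640 in WT and 1.15 ± 0.0157 in T4A. The place of PGK1 rests on the listed span: with all its counts set to the RefSeq gene its level was 6.08 and 6.34 CPM per kb in WT and 6.60 and 6.88 in T4A, which lies between LDHA and HIF1A.

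**Figure D2:**
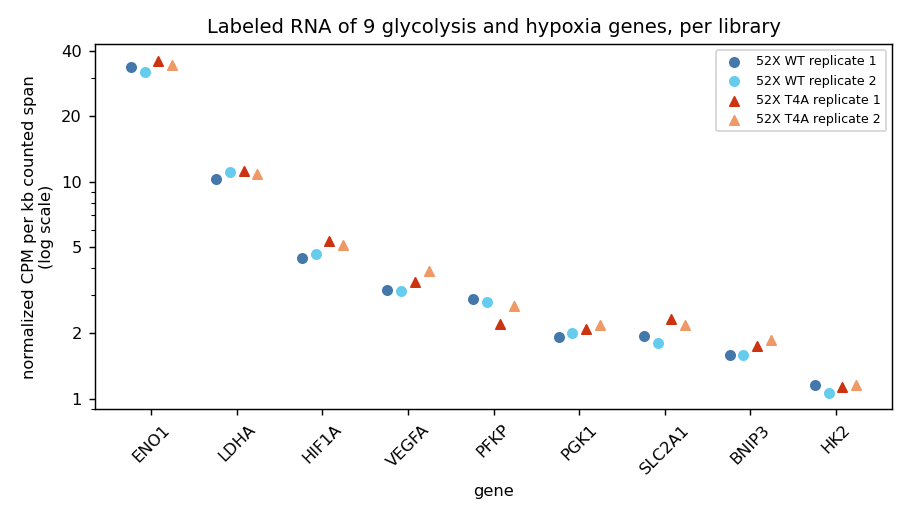
Normalized CPM per kb of free span on a log axis for each of the 9 genes in each library, with circles for the 52X WT and triangles for the 52X T4A libraries. ENO1 lies between 31.957 and 36.105 and HK2 between 1.0663 and 1.1568, and for 6 genes both triangles lie above both circles.

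The question put to these genes was whether their transcription differed between cells with the T4A and with the WT CTD. In edgeR's quasi-likelihood test over 23321 genes, a gene counted as called when it differed by more than 1.5-fold with an adjusted p-value under 0.05. None of the 10 genes was called, and over all genes 1 was called, CHST8, or 0.00429% (adjusted p = 0.0311). At an unadjusted p-value below 0.05, SLC2A1 and VEGFA were higher in T4A and none of the 9 genes other than ALDOA was lower, where 7.45% of all tested genes were higher and 8.02% lower. Both T4A libraries lay above both WT libraries for 6 of the 9 genes other than ALDOA (HIF1A, VEGFA, SLC2A1, PGK1, ENO1 and BNIP3), against 24.8% of all tested genes, and both lay below for PFKP, against 24.7%. The groups overlapped for HK2 and LDHA. ALDOA passed the filter on low counts only through the T4A libraries, where it was higher, so its log2 fold change of 1.24 (unadjusted p = 0.0442 in edgeR's quasi-likelihood fit) is left out of these counts.

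Relative to most genes, the differences that the data allow were small. The median log2 fold change of the 9 genes was 0.12, and that of all tested genes was -0.0008. The scaling sets most genes to a common level, so the latter lies near 0 by construction. A rise or fall shared by most genes would not show in these values. The 95% interval of the fold change of each of the 9 lay inside 1.5-fold in both directions, with its lowest bound at a log2 of -0.46 (PFKP) and its highest at 0.48 (SLC2A1), whereas 41.3% of all tested genes had an interval that narrow. These 9 genes have many counts, and their libraries lay close to each other: the median difference between the T4A libraries was 0.06 on the log2 scale, against 0.18 over all tested genes, and between the WT libraries it was 0.06 against 0.14. Taken one at a time, T4A replicate 1 had a median log2 ratio of 0.13 to the WT mean and T4A replicate 2 one of 0.15.

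**Figure D3:**
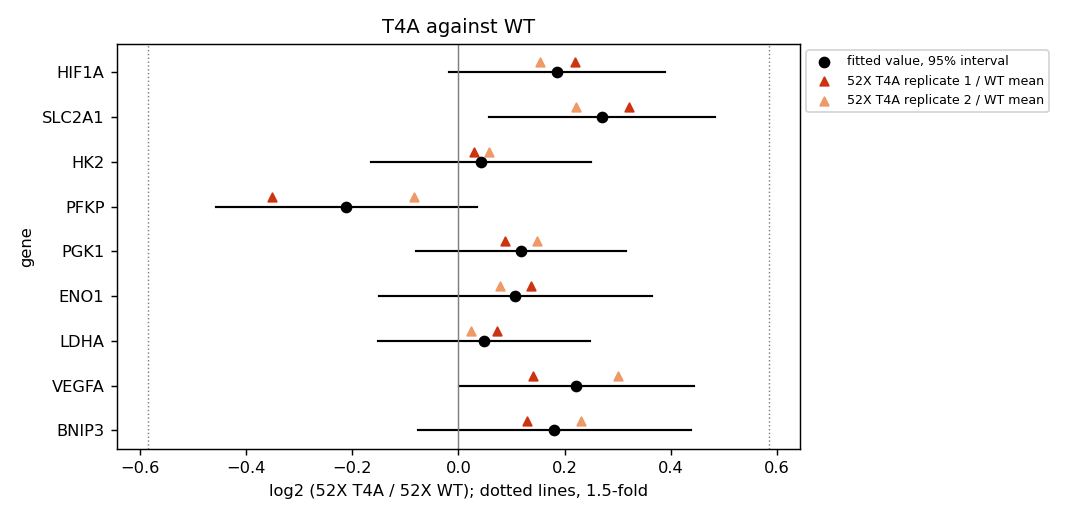
Log2 fold change of T4A over WT for the 9 genes other than ALDOA, with the fitted value as a circle, its 95% interval from edgeR's quasi-likelihood fit as a bar and each T4A library against the WT mean as a triangle. All intervals lie between -0.46 and 0.48, inside the dotted lines at 1.5-fold, and the triangles of PFKP lie farthest apart.

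HIF1A, the regulator of the set, had 173 and 180 normalized CPM in the WT libraries and 205 and 196 in the T4A libraries. Both T4A libraries lay above both WT libraries, by 1.14-fold (95% interval 0.988 to 1.31), and the difference was not called (log2 0.19, SE 0.09, adjusted p = 0.355). Its antisense neighbour HIF1A-AS1, whose start lies 310 bp from that of HIF1A on the other strand, had 102 and 152 counts in WT and 112 and 136 in T4A, which overlap. The lncRNA gene that covers the end of HIF1A had 196 and 226 counts in WT and 208 and 149 in T4A, which overlap too.

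SLC2A1, which brings glucose into the cell, had 64.6 and 59.6 normalized CPM in WT and 77.5 and 72.4 in T4A. The groups did not overlap, and the fold change of 1.21 (95% interval 1.04 to 1.398) was the highest of the 9 fitted values. Its unadjusted p-value was 0.0185 in edgeR's quasi-likelihood test, and the adjusted p = 0.255 did not pass. The divergent transcript SLC2A1-DT, which starts 156 bp away, had 330 and 380 counts in WT and 316 and 261 in T4A. The counts of this and the other neighbouring genes are not scaled to the size of a library. The fitted log2 fold change of SLC2A1-DT, which is scaled, was -0.01 (unadjusted p = 0.965 in edgeR's quasi-likelihood fit).

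For the glycolytic enzymes HK2, PGK1, ENO1 and LDHA the fold changes of T4A over WT lay between 1.03 and 1.09. HK2 had 68.5 and 63.2 normalized CPM in WT and 67.1 and 68.5 in T4A, a fold change of 1.03 (95% interval 0.892 to 1.19). The groups overlapped. PGK1 had 152 and 159 normalized CPM in WT and 165 and 172 in T4A, or 1.09-fold (95% interval 0.946 to 1.25). ENO1 had 610 and 578 in WT and 654 and 627 in T4A, or 1.08-fold (95% interval 0.901 to 1.29). The T4A libraries of both genes lay just above the WT libraries, and neither difference was called (adjusted p = 0.529 and 0.664 in edgeR's quasi-likelihood test). LDHA had 131.5 and 141 normalized CPM in WT and 143 and 138 in T4A, or 1.03-fold (95% interval 0.900 to 1.19), and its groups overlapped. The antisense gene ENO1-AS1 had 99 and 119 counts in WT and 61 and 107 in T4A, again with overlapping groups. HK2-DT and PFKP-DT, which start beside HK2 and PFKP on the other strand, had between 9 and 27 counts, and their groups overlapped too.

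PFKP was the only gene of the set with both T4A libraries below both WT libraries. It had 196 and 190 normalized CPM in WT and 151 and 182 in T4A. T4A replicate 1 was lower, at a log2 of -0.35 from the WT mean, while T4A replicate 2 was at -0.08, so the T4A libraries differed from each other by more than the second of them differed from WT. The fold change was 0.864 (95% interval 0.728 to 1.02, adjusted p = 0.378 in edgeR's quasi-likelihood test). Its log2 value was -0.08 without T4A replicate 1 (adjusted p = 0.855) and -0.37 without T4A replicate 2 (adjusted p = 0.0218), the latter short of the 1.5-fold threshold.

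VEGFA, the secreted factor that drives vessel growth, had 51.5 and 51.0 normalized CPM in WT and 56.5 and 63.1 in T4A. Both T4A libraries were higher, by 1.17-fold (95% interval 1 to 1.36), and the adjusted p = 0.323 in edgeR's quasi-likelihood test did not pass. BNIP3, which sits in the outer mitochondrial membrane and takes part in the removal of mitochondria, had 24.9 and 24.7 normalized CPM in WT and 27.1 and 29.1 in T4A. The WT libraries were close to equal and both T4A libraries lay above them, by 1.13-fold (95% interval 0.948 to 1.36, adjusted p = 0.459).

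T4A replicate 1 differed from T4A replicate 2 most for genes rich in G and C, and the set covers a wide range of base composition. GC content of the gene span was taken for 23162 tested genes. The median log2 ratio of T4A replicate 1 to T4A replicate 2 was 0.12 in the fifth of genes with the least GC and -0.36 in the fifth with the most. Across these genes the Spearman correlation of that ratio with GC was -0.472, and that of the ratio of WT replicate 1 to 2 was 0.321, given as a description since genes share libraries. The spans ran from 37.2% GC for HIF1A and 39.6% for PGK1 through 43.9% for LDHA, 47.6% for HK2, 49.6% for BNIP3, 50.2% for ENO1, 51.4% for PFKP and 52.7% for SLC2A1 to 56.4% for VEGFA and 59.3% for ALDOA. PFKP and VEGFA, both in the GC-rich part, had the lower value in T4A replicate 1, with log2 ratios of T4A replicate 2 to replicate 1 of 0.27 and 0.16. SLC2A1, of similar GC content, went the other way with -0.10, BNIP3 had 0.10 and HIF1A had -0.06. Over the tested genes with a GC value, the log2 fold change of T4A over WT had a Spearman correlation of -0.176 with GC, again as a description. The part of base composition in the differences between groups was not tested.

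**Figure D4:**
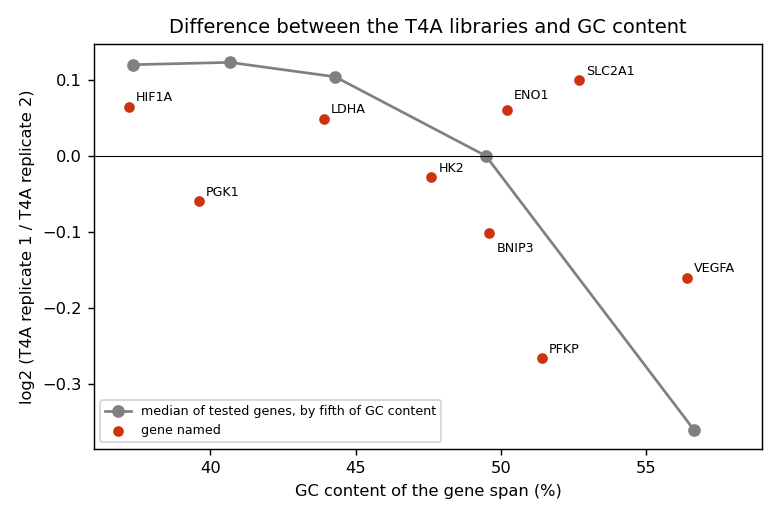
Log2 ratio of T4A replicate 1 to T4A replicate 2 against the GC content of the gene span in percent, with the 9 genes other than ALDOA as red points and the medians of all tested genes binned by GC content as the grey line. The line falls from 0.12 to -0.36, and PFKP, whose ratio of replicate 2 to replicate 1 is 0.27, is the lowest point.

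The rest of the pathway was described with 4 lists. Among 27 further glycolysis enzymes, 23 were tested and none was called. BPGM, HKDC1 and PFKFB4 were higher at an unadjusted p-value below 0.05 and no enzyme was lower, that is 3 and 0 of 23, where 7.45% and 8.02% of all tested genes were. The median log2 fold change of the list was 0.08, beside -0.0008 for all tested genes. BPGM, which makes 2,3-bisphosphoglycerate in a side branch of glycolysis, had 67.8 and 71.9 normalized CPM in WT and 123 and 101 in T4A. The T4A libraries were well above the WT libraries, with a log2 fold change of 0.68 (SE 0.11, adjusted p = 0.150 in edgeR's quasi-likelihood test). This value passed both thresholds with DESeq2 (adjusted p = 6.84e-06), without a filter on low counts (adjusted p = 0.0186), with the replicate number as a block (adjusted p = 0.00127) and without T4A replicate 2 (adjusted p = 1.83e-09), while without T4A replicate 1 it was 0.54 (adjusted p = 0.0139), short of 1.5-fold. Its adjusted p did not pass with library size (0.0961) or mitochondrially encoded genes (0.103) as the scale, with at least 10 counts in every library (0.107), with halved counts (0.120), or without WT replicate 1 (0.397) or 2 (0.584). GAPDH had 155 and 142 normalized CPM in WT and 113 and 141 in T4A, and like PFKP it was lower mainly in T4A replicate 1 (log2 of -0.39 from the WT mean, against -0.07 in T4A replicate 2). PKM, which makes pyruvate, had 568 and 579 in WT and 693 and 561 in T4A, with overlapping groups.

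All 19 genes that carry or channel glucose, lactate and pyruvate were tested, and none was called. MPC2, a subunit of the mitochondrial pyruvate carrier, was higher at an unadjusted p-value below 0.05 (log2 0.33). PDK3, a kinase that shuts the pyruvate dehydrogenase, and SLC16A7, a monocarboxylate transporter, were lower (-0.32 and -0.26). These are 1 and 2 of 19, where 7.45% of all tested genes were higher and 8.02% lower. With DESeq2 the adjusted p of PDK3 was 0.0323, short of the 1.5-fold threshold. In edgeR scaled to mitochondrially encoded genes it was 0.676. The median log2 fold change of the list was -0.05. In the oxygen-sensing pathway, 14 of 16 genes were tested and none was called. ARNT, the partner of HIF-1 alpha, had 33.6 and 34.4 normalized CPM in WT and 24.96 and 24.99 in T4A. The groups were well apart, with a log2 fold change of -0.45 (SE 0.11), and the adjusted p = 0.193 in edgeR's quasi-likelihood test did not pass. With DESeq2 the adjusted p of ARNT was 0.0154, short of the 1.5-fold threshold. In edgeR scaled to mitochondrially encoded genes it was 0.324. EPAS1, which encodes HIF-2 alpha, had a log2 fold change of 0.25 and ARNT2, a relative of ARNT, one of -0.22, while VHL had 0.05 with overlapping groups. The list's median was -0.05. EGLN1, the main prolyl hydroxylase, kept 0.0786% of its span free of a gene of the same strand and had at most 2 counts, so it was not measured.

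Among 30 other HIF target genes, 26 were tested and none was called, with a median log2 fold change of -0.03. NDRG1 was among the 2 genes that were higher at an unadjusted p-value below 0.05 (log2 0.32). INSIG2, which restrains sterol synthesis, was among the 2 that were lower (-0.56). These are 2 and 2 of 26, near the 7.45% of all tested genes that were higher and the 8.02% that were lower. With DESeq2 the adjusted p of NDRG1 was 0.00778, short of the 1.5-fold threshold. In edgeR scaled to mitochondrially encoded genes it was 0.796. The hypoxia markers CA9 and EPO had few counts in either group, 4 to 8 and 0 to 13, and were not tested. Both T4A libraries lay above both WT libraries for 8 of the 26 targets and below for 4, beside 24.8% and 24.7% of all tested genes. Of the 23 enzymes 5 lay above and 5 below, of the 19 genes of glucose, lactate and pyruvate 6 above and 3 below, and of the 14 oxygen-sensing genes 2 above and 5 below.

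**Figure D5:**
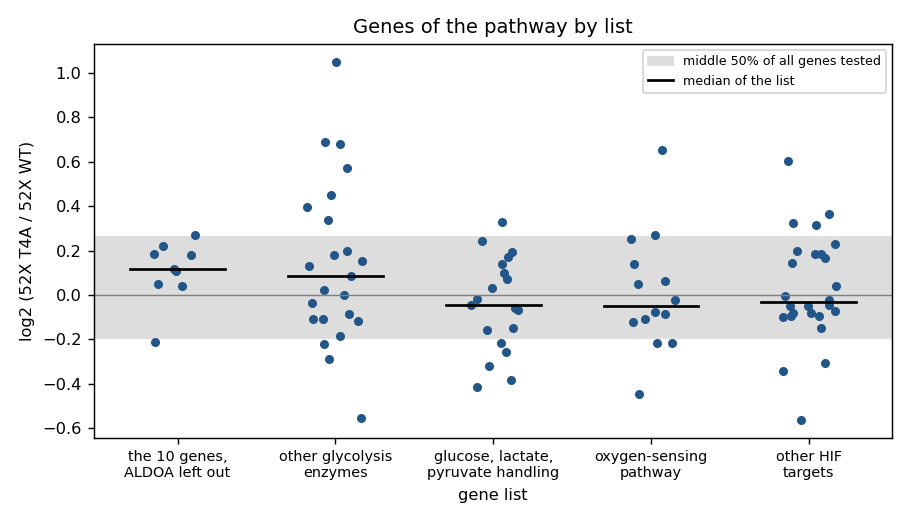
Log2 fold change of T4A over WT for each tested gene of the set without ALDOA and of the 4 lists, 1 point a gene, with the median of each as a line and the middle 50% of all tested genes as a grey band. The medians lie between -0.05 and 0.12.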

How the data were processed

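TT-seq libraries of HEK293 cells (2 of 52X WT, 2 of 52X T4A) were analysed. The authors deposited raw counts per gene, made with featureCounts from uniquely aligned reads. The submitters' processing notes name FastQC, cutadapt 4.6, STAR 2.7.11b, Picard, deepTools 3.5.6 and GRCh38; the version of featureCounts, its strand setting and the annotation release are not given in the sources used here. The listed length equalled the span for all 60708 genes, and 99.974% of 19052 protein-coding genes overlapped their GRCh38 position. Symbols were assigned by stable identifier to 58700 genes. Counts between 1 and 10 were even for 83.1% to 86.5% of genes, against 51.9% to 56.1% above 1000. Such a pattern can arise when both reads of a pair are counted, in which case there would be fewer fragments than counts. This was not tested. GC content came from GRCh37 spans by stable identifier, and promoters from RefSeq.

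Counts were fitted with edgeR 4.0.16 in R 4.3.3 (TMM, the default filter on low counts, quasi-likelihood test, Benjamini-Hochberg over 23321 genes), and standard errors were derived from the F statistic. The script was tested on simulated data. Alternatives were DESeq2 1.42.0, library size or mitochondrially encoded genes as the scale, other filters, no fold threshold, the replicate number as a block, each library left out, and, chosen after seeing the data, halved counts and the median without ALDOA. The members and lists were chosen with earlier results of these data known. Named genes of the lists were, per list, up to 3 with the smallest p-value below 0.05 and groups that do not overlap, plus GAPDH, PKM, EGLN1, VHL, CA9 and EPO; CHST8 was named after its value was seen. Replicate numbers were not treated as pairs in the main fit. Some genes of the lists and markers are not reported here.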

Additional observations from a re-analysis of the deposited data

How the results depend on the processing

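None of the 10 genes was called under any alternative. ALDOA could not be called in some of them, since it was not tested with halved counts and had no adjusted p with DESeq2. Over all genes 1 was called, against 99 with DESeq2, 195 with scaling to mitochondrially encoded genes, 65 without a filter on low counts, 433 with the replicate number as a block, and 0 to 2500 when 1 library was left out (3 without WT replicate 1, 0 without WT replicate 2, 195 without T4A replicate 1 and 2500 without T4A replicate 2). The cause was not tested. The labels give the replicate numbers without saying whether they pair the samples. The deviations of the first replicates of WT and T4A correlated at -0.0691 over 23321 genes. This cannot decide the question, since the replicate differences followed GC content with opposite signs in the 2 groups. In the fit with the replicate block 0 of the 10 genes had an unadjusted p-value below 0.05.

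That number was 3 with ALDOA included, 5 with library size as the scale, 0 with the mitochondrial scale and 1 to 2 with 1 library left out. Genes of the set with groups that did not overlap numbered 8 with ALDOA, and 5 with the mitochondrial scale. In the main fit 7.45% of all tested genes were higher and 8.02% lower at that unadjusted p-value. Both T4A libraries lay above both WT libraries for 24.8% of them and below for 24.7%. Shares over all genes are not given for the other settings, so these counts cannot be set against them there. The median log2 fold change of the set was 0.15, then 0.20 with library size, which moves all genes by 0.05, 0.12 without ALDOA, and 0.12 to 0.16 with 1 library left out. With 1 library left out the list medians ran from -0.055 to 0.104 for glycolysis enzymes, from -0.0859 to 0.103 for glucose, lactate and pyruvate handling, from -0.075 to 0.0123 for oxygen sensing and from -0.0319 to 0.0346 for other HIF targets. The handling list was at 0.00312 with library size and at 0.00864 with halved counts. The fold changes of 4 genes turned sign with 1 library left out: LDHA ranged from -0.0116 to 0.0781, HK2 from -0.034 to 0.0908, PKM from -0.0244 to 0.259 and VHL from -0.0282 to 0.118. With 1 library in a group, that library was assumed to vary like the others. Intervals cover the spread between libraries only, and the value of a gene with little free span, ALDOA above all, rests on few counts.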
